A study of Mus musculus with 18 samples.

Results

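The mRNAs of 9 genes of drug and steroid oxidation were followed in mouse liver: 7 genes of the cytochrome P450 subfamily Cyp3a (Cyp3a11, Cyp3a13, Cyp3a16, Cyp3a25, Cyp3a41a, Cyp3a44 and Cyp3a59), Nr1i2, which encodes the pregnane X receptor PXR, and Por, which encodes the cytochrome P450 reductase. They were chosen by name, with earlier results of these data known, and they are 9 of the 23532 genes in the deposited expression table. The mice were wild-type C57BL/6J animals kept from 5 weeks of age on the LF or HF diet, alone or with CR or Ex, and the liver was taken at 62 weeks. This gives 6 groups with 3 polyA RNA libraries each: LF and HF alone, LF+CR and HF+CR, and LF+Ex and HF+Ex. The labels do not spell out the codes, which in this field stand for low-fat (LF) and high-fat (HF) feeding, calorie restriction (CR) and exercise (Ex). No group carries a further agent or allele, and the labels give neither the sex of the mice nor whether each library is a separate animal, so the p-values measure the spread between these libraries.

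PXR is a nuclear receptor that is switched on by drugs, bile acids and steroids. As a heterodimer with RXR it binds pairs of hexamer half-sites near its target genes, of which Cyp3a11 is the classic example in mouse liver. Cyp3a enzymes oxidise steroids, bile acids and many drugs, and, like other microsomal P450 enzymes, they take their electrons from the reductase encoded by Por.

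Of the 9 genes, 6 passed the filter of at least 1 RPKM (read density scaled to transcript length and library size) in at least 3 of the 18 libraries: Cyp3a11, Cyp3a13, Cyp3a25, Cyp3a59, Nr1i2 and Por. The other 3, Cyp3a16, Cyp3a41a and Cyp3a44, were listed at 0 in all 18 libraries. RefSeq gene spans on GRCm38.p6 place Cyp3a11 (NM_007818) on chromosome 5 from 145854607 to 145879854, Cyp3a25 (NM_019792) from 145977192 to 146009644 and Cyp3a59 (NM_001105160) from 146079208 to 146114978. Cyp3a16 (145436309 to 145469740), Cyp3a41a (145694049 to 145720136) and Cyp3a44 (145773983 to 145805891) lie in the same cluster. Cyp3a13 (NM_007819, 137892933 to 137925610) and Por (NM_008898, 135670040 to 135735326) lie elsewhere on chromosome 5, and Nr1i2 (NM_010936) lies on chromosome 16 from 38248349 to 38294849.

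The promoters of the Cyp3a genes show how the members are related. The stretches below run from 190 to 71 bases before the start site (GRCm38.p6, RefSeq) and are shown because they hold the half-site letters searched for. The start site is that of the promoter sequences. Among the members it equals the gene start in the spans given above only for Cyp3a11 and Cyp3a41a. It lies far from that start for Por, whose stretch is chr5:135688955-135689074 with a span from 135670040. The same holds for Cyp3a13 on the minus strand, with its stretch at chr5:137921690-137921809 and its span ending at 137925610. Capitals mark AGGTCA (the nuclear receptor half-site), AGTTCA (a variant half-site) and CAAAGTCCA (an HNF4 motif), on either strand; these motifs do not overlap in the stretches. They lie at chr5:145879925-145880044 (minus strand) for Cyp3a11, chr5:146009689-146009808 (minus) for Cyp3a25, chr5:146079068-146079187 (plus) for Cyp3a59, chr5:145720207-145720326 (minus) for Cyp3a41a and chr5:145805945-145806064 (minus) for Cyp3a44.
Cyp3a11: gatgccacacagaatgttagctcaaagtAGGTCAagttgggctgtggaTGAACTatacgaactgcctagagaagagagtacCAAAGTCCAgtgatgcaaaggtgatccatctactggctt
Cyp3a25: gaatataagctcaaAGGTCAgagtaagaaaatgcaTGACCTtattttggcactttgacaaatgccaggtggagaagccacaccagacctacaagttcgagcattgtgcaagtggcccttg
Cyp3a59: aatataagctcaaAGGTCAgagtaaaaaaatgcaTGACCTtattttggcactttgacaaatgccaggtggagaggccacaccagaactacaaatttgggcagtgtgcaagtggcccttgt
Cyp3a41a: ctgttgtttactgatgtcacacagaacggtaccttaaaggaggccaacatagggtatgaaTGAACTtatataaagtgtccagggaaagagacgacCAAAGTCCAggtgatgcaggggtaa
Cyp3a44: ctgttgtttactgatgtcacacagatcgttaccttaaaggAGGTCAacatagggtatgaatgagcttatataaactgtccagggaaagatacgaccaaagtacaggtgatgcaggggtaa

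Cyp3a11 held 1 AGGTCA, 1 AGTTCA on the opposite strand and 1 CAAAGTCCA in its promoter of 300 bases (250 before to 50 after the start site). Cyp3a25 and Cyp3a59 each held 2 AGGTCA, 1 on each strand, and their promoters were 95.7% identical, against 50.8% and 49.5% for each with Cyp3a11. The promoter of Cyp3a11 was closer to those of Cyp3a16 (74.8%), Cyp3a44 (71.2%) and Cyp3a41a (70.3%), the genes listed at 0. Among themselves those genes were 92.1% to 93.4% identical. With the promoters of Nr1i2 and Por, outside the family, that of Cyp3a11 was 39.8% and 42.9% identical. Cyp3a41a held 1 AGTTCA and 1 CAAAGTCCA, Cyp3a16 held 1 CAAAGTCCA, and Cyp3a44 held 1 AGGTCA. None of the motifs occurred in the promoters of Cyp3a13, Nr1i2 and Por. For Cyp3a13 and Por the bases searched do not include the gene start of the spans given above. Over all 32851 promoters of this length, 16.3% held AGGTCA, 13.99% AGTTCA and 0.475% CAAAGTCCA. A match is a description of the letters, and binding was not measured.

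The transcripts themselves are alike, which bears on how reads were assigned. The reading frames of Cyp3a25 and Cyp3a59 were 97.5% identical, and 28.0% of the 50-base windows of the Cyp3a59 transcript also occurred in another Cyp3a transcript. The share was 26.3% for Cyp3a25, 14.7% for Cyp3a11, 18.2% for Cyp3a44, 10.5% for Cyp3a16 and 98.6% for Cyp3a41a, and no window of Cyp3a13 was shared. Levels of Cyp3a25 and Cyp3a59 are therefore uncertain as far as reads could be split between them.

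Estimated depth ran from 23900000 to 45400000 reads per library. Of the hepatocyte markers, Apoa1, Ttr, Serpina1c, Hnf4a, Tat and Cps1 were above 100 RPKM in every library. Alb, the albumin gene, was listed at 0 in 14 of 18, so a listed 0 can be a failed estimate. Alb was above 0 only in HF 1 (30395 RPKM) and in every HF+Ex library (30803 to 33218 RPKM). Its zeros thus went with the groups, and whether other genes were affected in this way was not tested. The summed level of 8 pancreas markers was 1483 RPKM in LF+CR 1, 291 in HF+CR 1, 38.6 in HF+CR 2, 34.0 in LF+Ex 1 and at most 12.7 elsewhere. The summed level of 7 bile duct markers was 167 RPKM in HF+CR 3 and 148 in LF 2, against 15.5 to 74.6 elsewhere. Most of it was Spp1 (up to 155 RPKM), and Cftr was at 0 in 14 libraries. Krt7 was highest in HF+CR 3 (2.37 RPKM), followed by LF 2 (1.78). Krt19 instead peaked in LF+Ex 1 (7.87 RPKM), with LF 2 at 2.64 and HF+CR 3 at 3.03. Markers of stellate cells, another liver cell type, also had their highest sums in LF 2 (147 RPKM) and HF+CR 3 (142), against at most 123 elsewhere. The results below were therefore also computed with HF+CR 1, LF+CR 1 and LF+Ex 1 left out, called the pancreas libraries here, and with HF+CR 3 and LF 2 left out, called the bile duct libraries. The pancreas libraries were taken as found in an earlier look at these data. HF+CR 2, whose sum was above that of LF+Ex 1, is not among them and was left out only by itself. Prss2 and Ctrb1 were at 0 in HF+CR 2, against 5.92 and 7.32 RPKM in LF+Ex 1. Cela1, another of the pancreas markers, was at 4.68 RPKM or more in every library. Of 6 intestinal markers, Lct and Alpi were at 0 in all 18 libraries and Vil1 and Cdh17 reached 0.118 and 0.0470 RPKM. Fabp2 (50.7 to 214 RPKM) and Apoa4 (168 to 2142 RPKM) were present in every library. Fabp2 was lower in LF+CR than in LF (-0.93, limma adjusted p = 0.0126) and higher in HF+CR than in LF+CR (0.85, adjusted p = 0.0141); its part in the results was not tested. In whole liver, fewer cells of a type and less RNA per cell cannot be told apart.

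**Figure D1:**
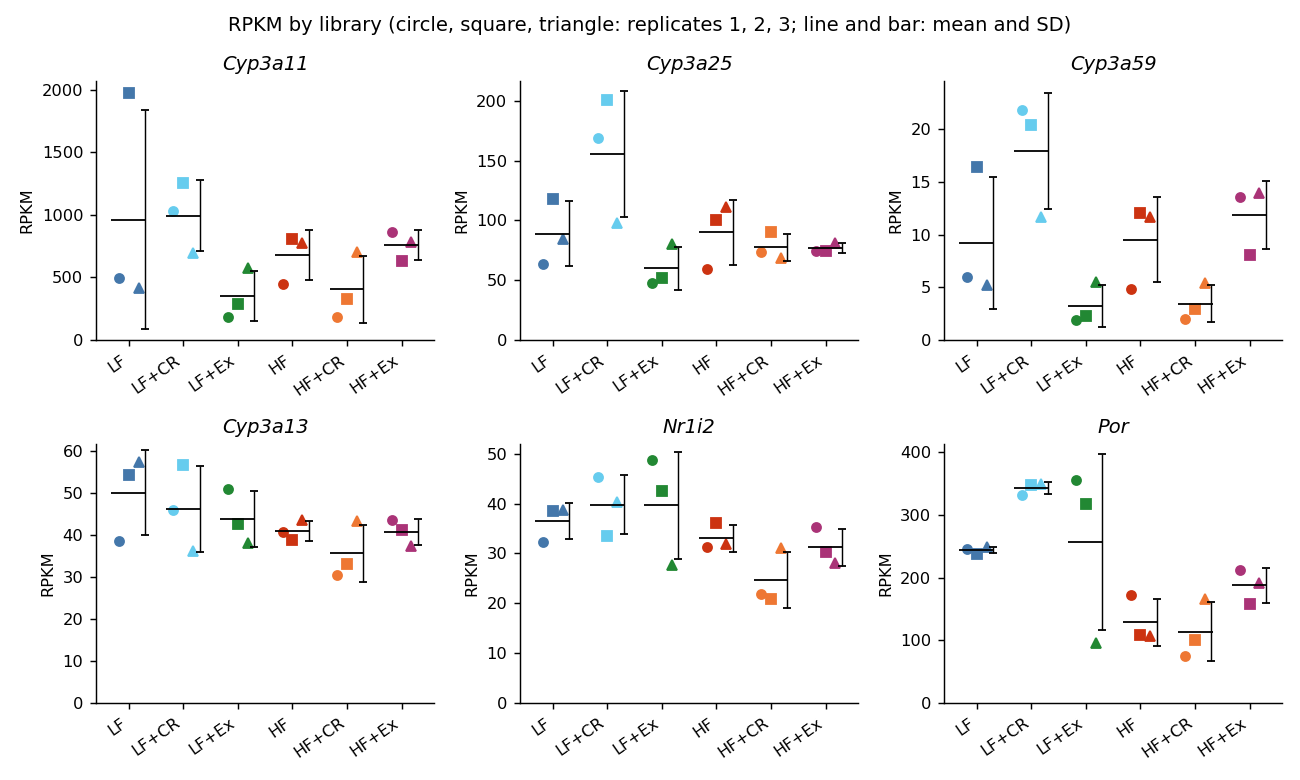
RPKM (y axis, linear from 0) of the 6 detected members in each of the 18 libraries, by group (x axis). Circles, squares and triangles are replicates 1, 2 and 3, horizontal lines are means of 3 libraries and bars are SD. Cyp3a11 in LF 2 stands at 1977 RPKM, and Por in LF+Ex 3 at 95.4 RPKM against 356 and 318 in LF+Ex 1 and 2.

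PXR mRNA was present in every library, over a 2.33-fold range. Nr1i2 was lowest in HF+CR 2, at 20.9 RPKM, and highest in LF+Ex 1, at 48.8 RPKM. It was 32.2, 38.5 and 38.8 RPKM in LF, and 31.2, 36.0 and 31.8 RPKM in HF. With CR it was 45.4, 33.6 and 40.3 RPKM on the LF diet and 21.8, 20.9 and 31.1 RPKM on the HF diet. All 3 HF+CR libraries lay below all 3 LF+CR libraries, and the 2 lowest values of the series were HF+CR 1 and 2. With Ex it was 48.8, 42.4 and 27.7 RPKM on the LF diet and 35.4, 30.2 and 28.1 RPKM on the HF diet, so that the Ex groups overlapped. By mean the order was LF+CR, LF+Ex, LF, HF, HF+Ex and HF+CR, and the ranges of every pair of neighbours in this order overlapped. LF+CR was above LF+Ex by only 0.117 RPKM. A second, lower RefSeq row of Nr1i2 had means of 4.63, 2.42 and 4.13 RPKM in LF, LF+CR and LF+Ex. Its means were 3.47, 0.530 and 3.13 RPKM in HF, HF+CR and HF+Ex. The order of LF+CR and LF+Ex thus depends on the row. Nr1i2 was lower in HF+CR than in LF+CR by limma on log2(RPKM + 1), with a difference of -0.68 ± 0.19 (SE, adjusted p = 0.0348).

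Por, the reductase, had groups without overlap between the diets in 2 of the 3 pairs, as did Cyp3a59. The share of all genes without such overlap was not computed, so this only describes the levels. Por was 245, 238 and 248 RPKM in LF and 172, 107.5 and 106 RPKM in HF, and every LF library lay above every HF library. With CR it was 332, 348 and 350 RPKM on the LF diet and 74.1, 99.95 and 166 RPKM on the HF diet, again without overlap. With Ex it was 356, 318 and 95.4 RPKM on the LF diet and 212, 158 and 192 RPKM on the HF diet. The third LF+Ex library, which also had the lowest Nr1i2 of its group, lay below all HF+Ex libraries, and these groups overlapped. In the order of the group means (LF+CR, LF+Ex, LF, HF+Ex, HF, HF+CR), the ranges of neighbours overlapped except for LF and HF+Ex.
On the log2 scale Por was lower in HF+CR than in LF+CR by -1.67 ± 0.38 (limma adjusted p = 0.0130). For HF against LF the difference was -0.96 ± 0.38 and did not pass (adjusted p = 0.227, 95% interval -1.77 to -0.14).

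Cyp3a11, the main Cyp3a enzyme of mouse liver, was the most abundant Cyp3a gene in every library; Por stood above it in LF+Ex 1 and LF+Ex 2 and below it elsewhere. It made up 63.8% to 91.3% of the summed RPKM of the Cyp3a genes, a sum that ran from 287 RPKM in LF+Ex 1 to 2165 RPKM in LF 2. Cyp3a11 was 498, 1977 and 417 RPKM in LF, and 1035, 1254.5 and 693 RPKM in LF+CR. It was 187, 289 and 575 RPKM in LF+Ex, and 449, 805 and 779 RPKM in HF. HF+CR had 187, 327 and 703 RPKM, and HF+Ex had 868, 628 and 787 RPKM. The spread within groups was wide: LF 2 was the highest library of the series and one of the bile duct libraries, and HF+CR 3, the highest of its group, was the other. Every LF+Ex library lay below every HF+Ex library, whereas neighbours in the order of the means (LF+CR, LF, HF+Ex, HF, HF+CR, LF+Ex) all overlapped. No comparison of Cyp3a11 passed the test. The log2 difference was -1.46 ± 0.56 for HF+CR against LF+CR (limma adjusted p = 0.113) and 1.26 ± 0.56 for HF+Ex against LF+Ex (adjusted p = 0.200). Without the bile duct libraries both passed, at -1.96 (adjusted p = 0.00691) and 1.26 (adjusted p = 0.0429). The first also passed without HF+CR 3 alone (adjusted p = 0.0390) or without LF 2 alone (adjusted p = 0.0496). LF 2 is in no group of either comparison, and HF+CR 3 is in no group of the second. The first thus stayed at -1.46 without LF 2 alone, and the second at 1.26 without the bile duct libraries.

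Cyp3a59, a less abundant Cyp3a gene, followed Cyp3a11 at about 1% of the family sum. Its share was 0.584% to 1.71% and was not the same in all groups. The share was 0.760% to 0.991% in LF, 1.33% to 1.71% in LF+CR and 0.584% to 0.783% in LF+Ex. On the HF diet it was 0.882% to 1.26% in HF, 0.646% to 0.690% in HF+CR and 1.08% to 1.51% in HF+Ex. The level of Cyp3a59 was 6.01, 16.4 and 5.19 RPKM in LF, and 21.8, 20.4 and 11.6 RPKM in LF+CR. It was 1.87, 2.25 and 5.47 RPKM in LF+Ex, and 4.88, 12.01 and 11.6 RPKM in HF. It was 2.03, 2.93 and 5.41 RPKM in HF+CR, and 13.5, 8.10 and 13.9 RPKM in HF+Ex. The HF+CR libraries all lay below the LF+CR libraries, and the HF+Ex libraries all lay above the LF+Ex libraries. By limma Cyp3a59 was lower in HF+CR than in LF+CR by -2.11 ± 0.44 on the log2 scale (adjusted p = 0.00760). It was higher in HF+Ex than in LF+Ex by 1.68 ± 0.44 (adjusted p = 0.0409). The effect of CR differed by -2.23 ± 0.62 between the diets, which did not pass (adjusted p = 0.126). That interaction passed without the bile duct libraries (-3.00, adjusted p = 0.0129) and without LF 2 alone (-2.70, adjusted p = 0.0466).

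Cyp3a25, another liver Cyp3a gene, stood between Cyp3a11 and Cyp3a59 in level. It was 63.9, 118 and 84.8 RPKM in LF, and 169, 200.3 and 97.5 RPKM in LF+CR. It was 47.9, 51.5 and 80.1 RPKM in LF+Ex, and 59.3, 99.98 and 111 RPKM in HF. It was 73.9, 90.1 and 68.1 RPKM in HF+CR, and 74.2, 74.6 and 81.4 RPKM in HF+Ex. LF+CR held the 2 highest values of the series, and LF+CR 3 overlapped LF and HF but not HF+CR. The log2 difference of HF+CR against LF+CR was -0.94 ± 0.29 (limma adjusted p = 0.0513), just outside the threshold. The table holds a second RefSeq row of Cyp3a25, the noncoding transcript NR_030782, and its share of the sum of both rows was 50.9% ± 4.5 (SD, n = 3) in LF and 34.7% ± 7.1 in LF+CR. It was 49.6% ± 5.7 in HF, 39.8% ± 5.5 in HF+CR, 53.7% ± 7.7 in HF+Ex and 49.4% ± 5.9 in LF+Ex. Both CR groups thus had the lowest mean shares, with no test made. With both rows summed, the difference of HF+CR against LF+CR was -0.83 (adjusted p = 0.0389).

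Cyp3a13, which lies outside the cluster, was the steadiest member. It ran from 30.5 RPKM in HF+CR 1 to 57.4 RPKM in LF 3, 1.88-fold in all, against 10.6-fold for Cyp3a11, 11.7-fold for Cyp3a59, 4.18-fold for Cyp3a25, 4.81-fold for Por and 2.33-fold for Nr1i2. The lowest group mean was that of HF+CR, 35.5 ± 6.7 RPKM, and the highest that of LF, 50.04 ± 10.1 RPKM (SD, n = 3). The ranges of all neighbouring groups overlapped. Its largest difference among the 7 pairs of groups was -0.36 ± 0.18 for HF+CR against LF+CR (limma adjusted p = 0.212).

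Cyp3a16, Cyp3a41a and Cyp3a44 are known as Cyp3a genes of fetal or female mouse liver. All 3 were listed at 0 in every library, as was the near copy Cyp3a41b, and Cyp3a57 was at 0.0212 RPKM in HF 2 and at 0 elsewhere. From the estimated depth, 1 read on Cyp3a44 would be worth 0.0112 to 0.0213 RPKM. The row of Cyp3a41a carries a locus suffix in its identifier, and 97.6% of the 577 such rows were at 0 in all libraries, against 35.3% of all 30582 rows. Its 0 can therefore not be read as absence. The 0 of Cyp3a16, Cyp3a44 and Cyp3a41b cannot be told from a failed estimate either, as Alb was listed at 0 in 14 of 18 libraries. In the same libraries 8 of 11 tested genes known to be higher in female liver were higher in LF+CR than in LF (limma adjusted p under 0.05), where 3.01% of all tested genes were higher.

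Taking the members together by comparison, HF+CR against LF+CR held most of the calls. Of the 6 tested members 3 were lower (Cyp3a59, Por and Nr1i2) and none higher, where 9.78% of the 10356 tested genes were called and 5.08% were lower. The median log2 difference of the members was -1.20, against -0.003 over all tested genes. As the members were chosen with earlier results of these data known, these values are not independent evidence. In HF+Ex against LF+Ex 1 of 6 was called, Cyp3a59, which was higher, where 5.15% of genes were called and 4.13% were higher. Both comparisons were sensitive to the pancreas libraries. Without them no member passed in either, and the differences for HF+CR against LF+CR were -1.71 for Cyp3a59 (limma adjusted p = 0.165), -1.43 for Por (adjusted p = 0.139) and -0.51 for Nr1i2 (adjusted p = 0.305). For HF+Ex against LF+Ex the difference of Cyp3a59 without them was 1.45 (adjusted p = 0.186). Without LF 2 alone, a library of neither group, 5 members passed in HF+CR against LF+CR. Cyp3a11 and Cyp3a25 were added, with differences unchanged at -1.46 and -0.94. Without HF+CR 1 alone only Cyp3a59 passed, and Por was at -1.41 (adjusted p = 0.0726). The call of Nr1i2 was also lost without LF+CR 1, LF+CR 3 or HF+CR 2 alone, with adjusted p from 0.0752 to 0.147. The call of Cyp3a59 in HF+Ex against LF+Ex was also lost without any 1 of LF+Ex 1, LF+Ex 2, HF+Ex 1, HF+Ex 2, HF+Ex 3, LF+CR 2 or HF+CR 2, with adjusted p from 0.0505 to 0.158. The part of pancreas or bile duct RNA in these differences was not tested beyond leaving the libraries out. The share of all genes called with the same libraries left out is not given here. Such counts therefore do not show whether calls changed for the members in particular.

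**Figure D2:**
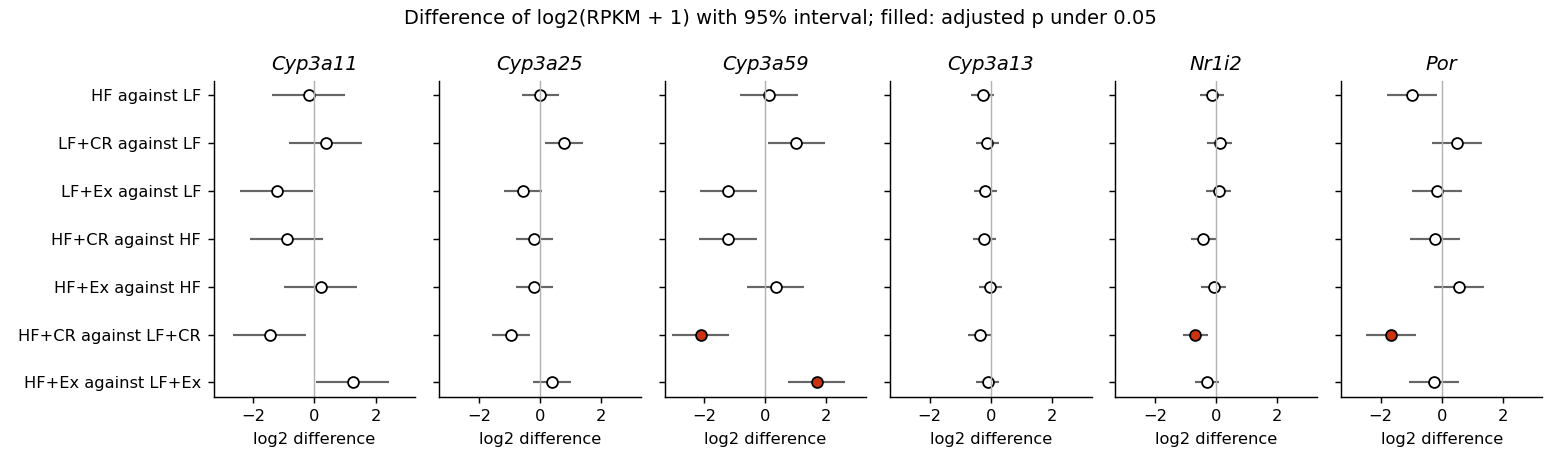
Difference of log2(RPKM + 1) between groups (x axis) for each detected member in 7 pairs of groups (y axis). Points are limma estimates, lines are 95% intervals, and filled points have an adjusted p under 0.05. Filled points stand for Cyp3a59, Nr1i2 and Por in HF+CR against LF+CR, at -2.11, -0.68 and -1.67, and for Cyp3a59 in HF+Ex against LF+Ex, at 1.68.

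In the other 9 of the 11 comparisons limma called none of the 6 members. For HF against LF, 1 member (Por) had an unadjusted p under 0.05, where 0.406% of all genes were called and 16.8% had such a p. LF+CR against LF had 2 such members (Cyp3a25 at 0.78 ± 0.29 and Cyp3a59 at 1.01 ± 0.44), with 6.5% of genes called and 22.4% at such a p. HF+CR against HF also had 2 (Cyp3a59 at -1.22 ± 0.44 and Nr1i2 at -0.43 ± 0.19), with 1.4% of genes called and 14% at such a p. LF+Ex against LF had 2 (Cyp3a11 at -1.24 ± 0.56 and Cyp3a59 at -1.22 ± 0.44), and HF+Ex against HF had 0. In both of these 0% of genes were called, and 9.12% and 3.64% had an unadjusted p under 0.05.
The interaction of CR with diet had 2 such members, with 1.02% of genes called and 11.8% at such a p. That of Ex with diet had 1, with 0% called and 5.07% at such a p. CR averaged over both diets had 0, with 7.18% called and 24.2% at such a p, and Ex averaged over both diets had 0, with 0% and 7.04%. These comparisons share groups, and a p that misses the threshold does not show that levels were equal. In LF+CR against LF, Cyp3a25 passed without LF+CR 3 (1.09, adjusted p = 0.0440) and Cyp3a59 passed without the bile duct libraries (1.48, adjusted p = 0.0406). The higher level of Cyp3a25 was that of its row NM_019792. The noncoding row NR_030782 had a mean of 80.6 RPKM in LF+CR and 91.4 RPKM in LF. With both rows summed the difference was 0.38, the lowest of the alternatives, and did not pass.

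Across libraries Cyp3a11, Cyp3a25 and Cyp3a59 varied together, and Nr1i2 varied with Por. Over the 18 libraries, Pearson's r of log2(RPKM + 1) was 0.93 between Cyp3a11 and Cyp3a59, 0.78 between Cyp3a25 and Cyp3a59 and 0.71 between Cyp3a11 and Cyp3a25. It was 0.80 between Nr1i2 and Por. Each of Cyp3a11, Cyp3a25 and Cyp3a59 had a low r with Nr1i2 and Por, from 0.04 (Cyp3a25 with Nr1i2) to 0.26 (Cyp3a59 with Por). Cyp3a13 was closer to Nr1i2 (0.66) and Por (0.62) than to Cyp3a11 (0.39), Cyp3a59 (0.33) or Cyp3a25 (0.30). With group means removed, r was 0.94 for Cyp3a11 with Cyp3a59 and 0.73 for Nr1i2 with Por. It was then -0.002 for Cyp3a11 with Nr1i2, -0.54 for Cyp3a25 with Por and 0.49 for Cyp3a13 with Nr1i2. LF+Ex 1 shows the contrast within a library, with the highest Nr1i2 and Por of the series and the lowest Cyp3a11, Cyp3a25 and Cyp3a59. It is one of the pancreas libraries. The points share libraries, depth and groups, and Cyp3a25 and Cyp3a59 also share sequence, so these values are descriptions.

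**Figure D3:**
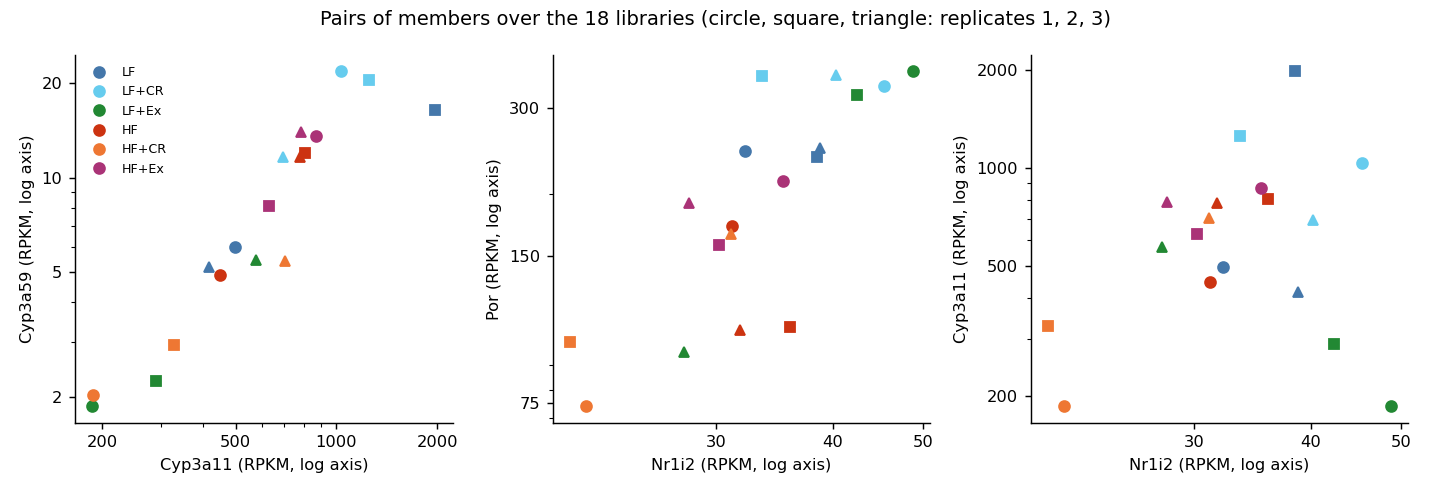
Levels of pairs of members in the 18 libraries (RPKM, both axes logarithmic): Cyp3a59 against Cyp3a11, Por against Nr1i2, and Cyp3a11 against Nr1i2. Colours are groups and shapes are replicates 1, 2 and 3. The first pair lies close to a line (r = 0.93), the second is looser (r = 0.80) and the third has no clear trend (r = 0.20).

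The members were left out of a search for genes of like pattern, so that Cyp3a11 and Cyp3a59, at 0.93 with each other, do not appear there. Among the 10008 other genes compared, those most like Cyp3a11 over the 18 libraries were Rad51b, a recombination protein gene (r = 0.89), the glutathione transferase gene Gstm1 (0.88) and the UDP-glucose dehydrogenase gene Ugdh (0.87). Of these genes, Cyp3a59 was closest to Rad51b (0.91), Cyp2c38, another P450 gene (0.90), and the transporter gene Slc22a27 (0.90). Nr1i2 was closest to Apeh (0.88), Etfbkmt (0.87) and Ddhd2 (0.86), and Por to Ggt6 (0.92), Slc6a9 (0.91) and Rapgef4 (0.90). Among those nearest Cyp3a25 were Rnf170 (0.92) and Ubxn2a (0.88), and Cyp3a13 was closest to Cadm1 (0.79), Osbpl2 (0.77) and Gde1 (0.76).

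PXR works with partners and with related receptors, and 15 of 16 listed genes of this kind were tested. In HF+CR against LF+CR none was higher and 2 were lower, where 5.08% of all genes were lower: Hnf4a, a hepatocyte transcription factor (-0.52 ± 0.12, limma adjusted p = 0.0149), and Ppargc1a, a coactivator (-0.79 ± 0.19, adjusted p = 0.0174). Hnf4a was 180.2, 191 and 178 RPKM in LF+CR and 128, 125 and 130 RPKM in HF+CR, without overlap. It was also lower in HF+Ex than in LF+Ex (-0.53 ± 0.12, adjusted p = 0.0257), the 1 call of the list in that comparison, where 1.01% of all genes were lower. The median of the list was -0.02 for HF+CR against LF+CR, against -0.003 over all genes.
Nr1i3, which encodes the receptor CAR, was lower with CR on both diets. It was 75.9, 79.6 and 106 RPKM in LF and 46.0, 57.0 and 59.7 RPKM in LF+CR (-0.67 ± 0.18, adjusted p = 0.0378). It was 99.2, 91.1 and 82.2 RPKM in HF and 53.3, 50.8 and 33.1 RPKM in HF+CR (-1.0003 ± 0.18, adjusted p = 0.0173). In neither pair did the groups overlap. Averaged over both diets the difference was -0.83 ± 0.13 (adjusted p = 0.00171), a call that held in all 29 alternatives (adjusted p up to 0.00950). In LF+CR against LF, Ppargc1a (0.94 ± 0.19, adjusted p = 0.0106) and the cochaperone gene Dnajc7 (0.35 ± 0.09, adjusted p = 0.0301) were higher. The list thus had 2 higher and 1 lower in LF+CR against LF, where 3.01% and 3.49% of all genes were, and 1 lower in HF+CR against HF, where 1.4% were called. Averaged over both diets, Nr1h4, which encodes the bile acid receptor FXR, was also lower with CR (-0.48 ± 0.11, adjusted p = 0.0185), and 7.18% of all genes were called there. Rxra, the dimer partner of PXR, lay between 74.5 and 125 RPKM and was called in no comparison. Apart from the averaged call of Nr1i3, every call named for the list but that of Nr1i3 in HF+CR against HF was lost without the pancreas libraries, and each was lost with at least 1 single library left out.

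PXR target genes outside the Cyp3a family, as listed from textbook knowledge, were mostly lower, where called, in HF+CR against LF+CR. Of 22 listed genes 21 were tested, and Sult2a1, a sulfotransferase gene, was listed at 0 in every library. There 7 were lower and 1 was higher, where 5.08% of all genes were lower and 4.7% higher, and the median of the list was -0.77. Slco1a4, an organic anion transporter gene, was 32.5, 34.4 and 30.4 RPKM in LF+CR and 3.09, 7.83 and 7.01 RPKM in HF+CR (-2.34 ± 0.29, limma adjusted p = 0.000232). Abcb1a, the gene of the drug efflux pump P-glycoprotein, was 7.96, 5.61 and 5.73 RPKM in LF+CR and 0.405, 0.806 and 2.80 RPKM in HF+CR (-1.79 ± 0.35, adjusted p = 0.00553). In both genes the groups did not overlap.
Cyp2b10, a P450 gene shared by PXR and CAR, was 6.99, 12.8 and 4.60 RPKM in LF+CR and 0.584, 0.737 and 0.796 RPKM in HF+CR (-2.32 ± 0.40, adjusted p = 0.00216). Akr1b7, an aldo-keto reductase gene, was 6.48, 3.37 and 1.9996 RPKM in LF+CR and 0, 0 and 0.0629 RPKM in HF+CR (-2.18 ± 0.28, adjusted p = 0.000297). The bilirubin glucuronosyltransferase gene Ugt1a1 (-0.77 ± 0.16, adjusted p = 0.00775), Cyp2c55 (-1.11 ± 0.33, 0.0456) and Fmo5 (-0.67 ± 0.20, 0.0473) were lower as well. Aldh1a1, an aldehyde dehydrogenase gene, was the 1 that was higher (0.93 ± 0.23, 0.0206). Ugt1a1, Cyp2c55 and Fmo5 fell outside the rule of 4 names per list and were chosen after their values were seen, as was Aldh1a1 here. Without the pancreas libraries 2 of the list passed, Slco1a4 and Akr1b7, whose calls held in every alternative that gave a value (adjusted p up to 0.0144 and 0.0181). With those libraries left out, Cyp2b10 had an adjusted p of 0.0506 and Abcb1a of 0.153. Without LF+CR 1, HF+CR 1 or HF+CR 2 alone 5 of the list passed. The shares of all genes called with these libraries left out are not given here.

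In LF+CR against LF 4 of the 21 targets were higher and 2 lower, where 3.01% of all genes were higher and 3.49% lower, with a median of 0.39. Higher were Akr1b7 (1.79 ± 0.28, limma adjusted p = 0.00221), Papss2, a sulfate donor synthase gene (1.01 ± 0.22, 0.0127), Cyp2b10 (1.59 ± 0.40, 0.0291) and Abcb1a (1.401 ± 0.35, 0.0304). Lower were Aldh1a1 (-1.34 ± 0.23, 0.00440) and the conjugate transporter gene Abcc3 (-0.90 ± 0.23, 0.0304). The count of 6 fell to 3 without the pancreas libraries or LF+CR 1 alone, and to 2 without LF 1 or LF+CR 2. Abcb1a and Abcc3 were named beyond the rule, after their values were seen.
In HF+Ex against LF+Ex only Cyp2b10 was called, higher by 1.58 ± 0.40 (adjusted p = 0.0350), and the median of the list was 0.51. It was 0.0655, 0.225 and 1.403 RPKM in LF+Ex and 3.97, 1.98 and 4.69 RPKM in HF+Ex. The call count was 0 without LF+Ex 1, LF+Ex 2 or any 1 HF+Ex library, 2 without LF 2 or LF+CR 1, 3 without LF 3, 5 without LF+Ex 3, 6 without HF+CR 3 and 7 without the bile duct libraries. For these counts and those of LF+CR against LF with libraries left out, the shares of all genes called are not given here. With CR averaged over both diets 4 targets were higher, among them Papss2 (0.74 ± 0.15, limma adjusted p = 0.00920) and Akr1b7 (0.83 ± 0.20, 0.0201). There 2 were lower, Aldh1a1 (-0.98 ± 0.17, 0.00350) and Abcc3 (-0.84 ± 0.16, 0.00640), where 7.18% of all genes were called. In HF against LF, LF+Ex against LF, HF+CR against HF and HF+Ex against HF none of the 21 was called.

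**Figure D4:**
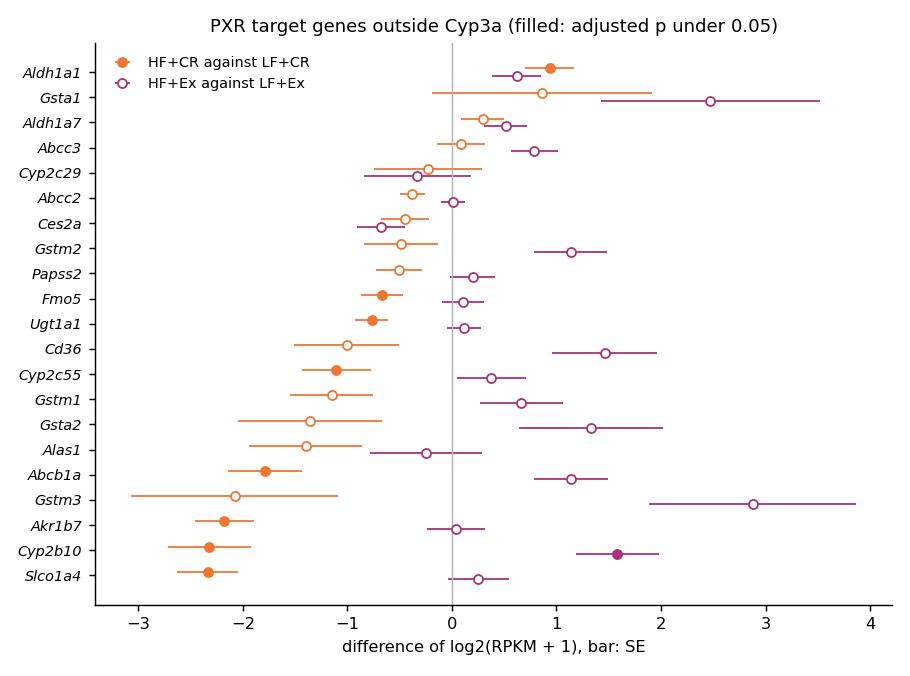
Difference of log2(RPKM + 1) (x axis) for the 21 tested PXR targets outside Cyp3a (y axis, ordered by the first comparison), in HF+CR against LF+CR (orange) and HF+Ex against LF+Ex (purple). Bars are SE and filled points have a limma adjusted p under 0.05. On the orange side 7 genes are filled below 0 and Aldh1a1 above 0, and of the purple points only Cyp2b10 is filled.

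Por also serves heme enzymes beside the P450 family, and 15 listed genes of electron transfer and heme metabolism were all tested. In HF+CR against LF+CR 1 was higher and 2 were lower, where 4.7% of all genes were higher and 5.08% lower: Uros (0.49 ± 0.15, limma adjusted p = 0.0465), Blvrb, a biliverdin reductase gene (-0.87 ± 0.23, 0.0240), and Urod (-0.33 ± 0.10, 0.0473), the first and the last being enzymes of heme synthesis. In HF+Ex against LF+Ex 2 were higher, Pgrmc1, a heme-binding partner of P450 enzymes (0.49 ± 0.12, 0.0288), and Uros (0.55 ± 0.15, 0.0435), where 4.13% of all genes were higher. In LF+CR against LF 1 was lower, Cpox, another enzyme of heme synthesis (-0.70 ± 0.16, 0.0195), where 3.49% of all genes were lower. Cpox was also lower with CR averaged over both diets (-0.41 ± 0.11, 0.0409), a call lost in 16 of 29 alternatives, and 7.18% of all genes were called there. The medians of the list were -0.10, 0.14 and 0.06, against -0.003, 0.08 and 0.0005 over all genes. The calls of this list were narrow: those of Uros and Urod were lost in 17 to 20 of 29 alternatives, those of Blvrb in 7, Pgrmc1 in 6 and Cpox in LF+CR against LF in 4, each with single libraries among them.

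The called differences of Cyp3a59 stood beside large differences of sex-biased genes. In HF+CR against LF+CR 10 of 11 tested female-biased genes were lower and 12 of 14 male-biased genes higher, with medians of -3.37 and 3.08, where 5.08% of all genes were lower and 4.7% higher. In HF+Ex against LF+Ex 4 of 11 female-biased genes were higher and 5 of 14 male-biased genes lower, where 4.13% of all genes were higher and 1.01% lower. The female-biased list had the direction of Cyp3a59 in both comparisons; their relation was not tested. Of 46 tested P450 genes of families 1, 2 and 4, 10 were higher and 10 lower in HF+CR against LF+CR, and 6 were higher and 4 lower in HF+Ex against LF+Ex, beside the same shares of all genes. Counts of the sex-biased and P450 lists were not recomputed with libraries left out or under the other alternatives.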

How the data were processed

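Liver polyA RNA from 18 libraries was measured by RNA sequencing. The authors deposited RPKM values for RefSeq transcripts, made with TopHat 1.4.1 and Cufflinks 1.3.0 on mm10 per the submitters' processing notes; the annotation version and the strand setting are not given in the sources used here. The titles of the samples gave the groups and replicate numbers. Rows were named through a RefSeq table (29999 of 30582 rows) and GENCODE (184), and each gene was represented by its row of highest mean. Genes with at least 1 RPKM in 3 libraries (10356) were tested with limma 3.58.1 in R 4.3.3 on log2(RPKM + 1), with a mean for each of 6 groups, 12 residual degrees of freedom, an intensity trend and Benjamini-Hochberg adjustment over all tested genes. Differences on this scale understate changes of low genes. A call is an adjusted p under 0.05. The test was checked on simulated data. Depth was estimated from the lowest steps of the deposited values, and no counting interval was derived from it. Alignments were made with Biopython 1.88, and promoters came from RefSeq (GRCm38.p6, all 9 genes found). The members and the gene lists were chosen with earlier results of these data known, so list counts are not independent evidence. Named were the 9 members, up to 4 called genes per list and comparison with the smallest adjusted p, and the 3 genes most like each tested member by Pearson's r, with unnamed gene models left out; 1 of the genes most like a member is not reported here. Alternatives varied the pseudocount, filter, scaling, trend, groups fitted, row per gene, replicate block and libraries.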

Additional observations from a re-analysis of the deposited data

Results flagged for a closer look

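The response of Akr1b7, a PXR target gene, to CR differed between the diets. It was 0, 1.06 and 0.164 RPKM in LF against 6.48, 3.37 and 1.9996 RPKM in LF+CR, and 0, 0.309 and 0.0351 RPKM in HF against 0, 0 and 0.0629 RPKM in HF+CR. The interaction of CR with diet on log2(RPKM + 1) was -1.902 ± 0.40 (limma adjusted p = 0.0305). It was negative in all 28 alternatives that gave a value, with adjusted p from 0.00768 to 0.200 and a loss of the call in 13 of them, among them those leaving out LF 1, LF 3, LF+CR 1, LF+CR 2, HF+CR 1, HF+CR 2 or any 1 HF library. Without the pancreas libraries it was -1.54 (adjusted p = 0.200), and with a pseudocount of 0.1 in place of 1 it was -4.13 (adjusted p = 0.156).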

How the results depend on the processing

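Of 66 differences (6 members in 11 comparisons), 55 stayed on the same side of the threshold in up to 29 alternatives and 11 did not, and none that was called reversed. In HF+CR against LF+CR the count of members called was 3, and it ran from 1 to 5 when 1 library was left out and was 0 without the pancreas libraries. There Nr1i2 also lost its call with no filter (limma adjusted p = 0.0521) and with only the groups compared in the fit (0.0840). In HF+Ex against LF+Ex it was 1, ran from 0 to 1 with 1 library left out, and was 0 with no filter (limma adjusted p = 0.0642 for Cyp3a59), 0 with the replicate block, 2 with the bile duct libraries left out and 0 with the pancreas libraries left out. In LF+CR against LF it was 0, ran from 0 to 1 with 1 library left out and was 1 without the bile duct libraries. For the interaction of CR with diet it was 0, ran from 0 to 1, and was 2 without the bile duct libraries. In the other 7 comparisons it was 0 in each alternative. For the PXR targets these alternatives were chosen after seeing the data. In LF+CR against LF the count was 6, ran from 2 to 7 with 1 library left out, and was 3 with only the groups compared in the fit and 3 without the pancreas libraries. In HF+CR against LF+CR it was 8, ran from 5 to 12, and was 5 with a mean of at least 5 RPKM, 4 with only the groups compared and 2 without the pancreas libraries. In HF+Ex against LF+Ex it was 1, ran from 0 to 6, and was 0 with no filter, 0 with a mean of at least 5 RPKM, 5 with only the groups compared, 7 with the bile duct libraries left out and 0 with the pancreas libraries left out. The shares of all genes called under these alternatives are not given here, so the counts do not show whether calls changed for these genes in particular. Leaving libraries out also leaves fewer samples, and the residual spread of a gene is shared by all groups in the fit. Where a library left out is in no group compared, the difference stays the same. Only the spread, the genes kept and the adjustment can then change a call. The cause of the other changes was not tested. The labels do not say what libraries of the same replicate number share, and the main fit did not pair them. Deviations from the group means of same-numbered libraries had r from -0.49 to 0.32, with 10 of 45 pairs over 0.1. For different numbers r ran from -0.39 to 0.44, with 20 of 90 pairs over 0.1. With the replicate block Nr1i2 (adjusted p = 0.0513) and Cyp3a59 in HF+Ex against LF+Ex (0.0501) lost their calls, and Cyp3a25 in HF+CR against LF+CR gained one (0.0486). With a pseudocount of 0.1 the Akr1b7 interaction was -4.13 (0.156). At the estimated depth 1 read on Cyp3a44 was worth up to 0.0213 RPKM. A listed 0 can be a level below that or a failed estimate, which the deposited values cannot tell apart.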
